A study of Rattus norvegicus with 12 samples.

Results

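The genes described here encode peptides that set the tone of blood vessels and the receptors through which smooth muscle answers them. They were followed in aortic smooth muscle cells stimulated through thrombin receptors. The list holds 9 genes: the peptides endothelin-1 (Edn1) and adrenomedullin (Adm), the receptors Ednra, Ednrb, Agtr1a, Avpr1a, Npr3 and Calcrl, and the receptor partner Ramp1. Members were the probe sets that the array annotation assigns to exactly 1 of these symbols. That gave 9 probe sets for 7 genes, of 31099 probe sets in all, and the rule gives 14217 genes on the whole array. Ednra and Ednrb, the endothelin receptors, had no probe set under this rule, so only their promoters were examined here and not their expression. Of the 9 probe sets, 5 were bright enough to be tested, 1 each for Edn1, Adm, Avpr1a, Npr3 and Ramp1.

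Endothelin-1 is a strong and long-lasting vasoconstrictor, made mostly by the endothelium and also by smooth muscle itself. Angiotensin II and vasopressin constrict as well, through Gq-coupled receptors that release calcium in the muscle cell. Adrenomedullin relaxes vessels by raising cyclic AMP, and natriuretic peptides relax them by raising cyclic GMP. The receptor for thrombin itself couples to Gq, to G proteins of the Gi family and to G12 and G13.

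Cells were primary cultures from the aorta of newborn rats, starved of serum overnight in medium with albumin. Each of 3 experiments compared 2 arrays of unstimulated cells with 2 arrays of cells taken 120 min after the stimulus. The first experiment used thrombin (2 U/ml). The second used TRAP (25 µM), a peptide that activates the thrombin receptor. In the third, cells were kept for 24 h in 200 ng/ml of pertussis toxin, PTX, before the same dose of TRAP. PTX uncouples receptors from Gi. The unstimulated arrays of the PTX experiment carry no agent in their labels, and it is not said if they were given PTX. PTX alone and TRAP after PTX therefore cannot be told apart in that response. Nothing in the labels says that replicates were separate cultures or animals, so the p-values cover only array-to-array spread, which may be technical. Fewer cells of a type and less RNA per cell cannot be told apart in such bulk samples.

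All 10 smooth muscle markers examined were bright enough to test. Acta2 had a mean signal of 7221, while Myh11 was at 50.7 and Des at 28.9. Of 6 fibroblast markers on the array, 5 were also bright enough, among them Mfap5 (mean signal 5431) and Dcn (1720). Of 11 endothelial markers on the array, 8 were below the tested range, including Pecam1 (mean signal 4.24) and Vwf (7.13). Median signals per array ran from 39.7 to 53.6. The 8 arrays of the TRAP experiments fell into 2 sets that cross their labels, visible in the acute-phase gene Saa3. Low Saa3, 15.9 to 22.8, was found in the basal TRAP cells (2 arrays), in TRAP replicate 2 and in replicate 1 of TRAP after PTX. High Saa3, 222.5 to 420.9, was found in the basal cells of the PTX experiment (2 arrays), in TRAP replicate 1 and in replicate 2 of TRAP after PTX. These are sets seen in the data, not groups of the study. Whether samples were exchanged between the TRAP and PTX experiments cannot be settled from the files. Every value for TRAP, TRAP after PTX and the PTX effect rests on the labels as given. Where results of Edn1, Adm and Avpr1a move with them, values with the sets as a block or from matched arrays are given too. Matched arrays leave out the stimulated arrays whose basal arrays lie in the other set (TRAP replicate 1 and TRAP after PTX replicate 1). That leaves 1 stimulated array in each response.

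Edn1 rose after thrombin and after TRAP. Its signal was 269.0 and 283.5 on the basal arrays of the thrombin experiment and 722.2 and 712.3 after thrombin. In the TRAP experiment it was 237.4 and 288.5 before and 608.8 and 404.9 after the peptide. In the PTX experiment it was 289.7 and 303.5 before and 368.5 and 559.3 after TRAP. The stimulated arrays lay above the basal arrays in each experiment, and the thrombin arrays were the highest of the 12.

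The stretch of the Edn1 promoter that carries the motif matches is shown here, since Edn1 was the member with the largest response to thrombin. It covers bases -250 to -101 before the RefSeq start (GRCr8, minus strand, chr17:22666788-22666937), with the matched letters in capitals, in order GATA, hypoxia element, an AP-1-like heptamer and a TATA box.
Edn1: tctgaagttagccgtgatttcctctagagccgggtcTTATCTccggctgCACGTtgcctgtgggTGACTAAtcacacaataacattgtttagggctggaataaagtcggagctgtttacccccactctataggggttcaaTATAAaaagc

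Motifs were searched on both strands in the 250 bases before the start of all 9 members and of all 33469 promoters in the RefSeq table. The GATA motif AGATAA stood in the Edn1 promoter and in no other member, against 10.3% of all promoters. The hypoxia element ACGTG stood in the promoters of Edn1 and Avpr1a, against 16.6%. The AP-1 site TGANTCA, the full cyclic AMP element TGACGTCA, the Egr site GCGGGGGCG and the SRF CArG core stood in no member. Their shares over all promoters were 6.34%, 1.587%, 2.447% and 1.497%. The short cyclic AMP element TGACG, a part of the full element, stood in Ednrb, Agtr1a and Avpr1a (18.2% of all promoters), and the NF-kB motif (GGGA, any 4 letters, then CC) in Ednra and Ramp1 (16.4%). The heptamer TGACTAA was searched after the Edn1 sequence had been read. It stood in Edn1 alone of the members, against 1.99% of all promoters. TATAA, also added after reading, stood in Edn1, Adm, Agtr1a and Avpr1a (24.0%). These matches describe letters in a window and are no evidence of binding.

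The log2 change of Edn1 with thrombin was 1.33 ± 0.19 (SE), a 2.51-fold rise on the log2(signal + 16) scale, with an adjusted p of 0.000934 (limma, Benjamini-Hochberg). It was the 1 member of 5 tested that was called after thrombin, where 4.74% of all 18625 tested probe sets were called. The change was 0.88 ± 0.19 with TRAP (adjusted p = 0.0177) and 0.59 ± 0.19 with TRAP after PTX (adjusted p = 0.124). Averaged over the 3 responses, Edn1 rose by 0.93 ± 0.11 (adjusted p = 7.94e-05), and this average passed the test in all 24 alternatives run, with adjusted p up to 0.00145.

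The TRAP responses of Edn1 moved with the array sets. In the Saa3-high set, Edn1 was 289.7 and 303.5 on the basal arrays, 608.8 with TRAP and 559.3 with TRAP after PTX. In the Saa3-low set it was 237.4 and 288.5 on the basal arrays, 404.9 with TRAP and 368.5 with TRAP after PTX. All 4 stimulated arrays lay above the basal arrays of their own set. With the sets as a block, the change was 0.597 with TRAP (adjusted p = 0.0117) and 0.877 with TRAP after PTX (adjusted p = 0.00131). From matched arrays, with 1 stimulated array left in each response, it was 0.5995 with TRAP and 0.880 with TRAP after PTX. The sets were read from these arrays, so the p-values with the block are no independent support. Leaving out basal TRAP replicate 1, basal TRAP replicate 2 or TRAP replicate 1 ended the call after TRAP (changes of 0.75, 1.02 and 0.5995, adjusted p = 0.189, 0.0568 and 0.155). So did a fit with no intensity trend (adjusted p = 0.0624) and one with all 6 basal arrays as control (0.804, adjusted p = 0.0937).

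Endothelial markers, taken as the summed signal of the 11 on the array, were higher on the stimulated arrays of each experiment, without overlap. The sums were 311.9 to 349.7 before and 451.9 to 506.4 after thrombin. They were 364.6 to 396.3 before and 693.9 to 896.1 after TRAP, and 426.2 to 529.6 before and 675.4 to 910.6 after TRAP with PTX. The list holds Flt1, a VEGF receptor gene, at 80.6 to 235.8 on basal and 247.6 to 760.3 on stimulated arrays. The other 10 summed to 222.8 to 269.1 before and 185.8 to 258.8 after thrombin, and to 209.8 to 293.8 before and 150.3 to 244.0 after TRAP with PTX, ranges that overlap. In the TRAP experiment they did not overlap, at 170.1 to 170.8 before and 181.3 to 198.5 after. Of these 10, only Egfl7 (mean signal 99.7) and Tek (45.4) were bright enough to test. The part of these markers in the change of Edn1 was not tested.

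Adm, whose peptide relaxes vessels, rose in the TRAP experiment and in the PTX experiment. Its change with thrombin did not pass the test, and neither did the difference between its thrombin and TRAP responses. Its signal was 89.9 and 99.0 on the basal TRAP arrays and 152.4 and 161.0 after TRAP. In the PTX experiment it was 76.6 and 83.7 before and 144.6 and 181.6 after TRAP. In the thrombin experiment it was 69.1 and 71.8 before and 91.5 and 77.9 after thrombin. No stimulated array overlapped the basal arrays of its experiment, and all 4 arrays with TRAP were higher than the other 8.

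The Adm promoter, bases -250 to -1 before the RefSeq start (GRCr8, plus strand, chr1:174179950-174180199), is shown for comparison with that of Edn1. Of the motifs searched, TATAA, in capitals, was the only one in it, found on both strands at overlapping positions.
Adm: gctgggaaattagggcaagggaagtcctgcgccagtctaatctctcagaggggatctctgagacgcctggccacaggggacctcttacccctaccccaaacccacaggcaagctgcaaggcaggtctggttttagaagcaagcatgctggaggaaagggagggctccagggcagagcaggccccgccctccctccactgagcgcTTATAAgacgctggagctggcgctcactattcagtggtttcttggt

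The log2 change of Adm was 0.65 ± 0.15 (SE) with TRAP (adjusted p = 0.0298), 0.89 ± 0.15 with TRAP after PTX (adjusted p = 0.00667) and 0.22 ± 0.15 with thrombin (adjusted p = 0.512). After TRAP, 2 of 5 tested members were called, Edn1 and Adm, against 3.9% of all probe sets. After PTX and TRAP, 1 of 5 was called, Adm, against 2.71%. In the average of the 3 responses 2 of 5 were called, again Edn1 and Adm, against 13.2%, and Adm stood at 0.58 ± 0.09 there (adjusted p = 0.000627).

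The call of Adm after TRAP was lost when any 1 of the 4 arrays of that experiment was left out (adjusted p between 0.0988 and 0.230). Testing with no filter on dim probe sets ended it too (adjusted p = 0.0610). A block for the array sets also ended it, at 0.589 with an adjusted p of 0.0759. So did the use of matched arrays, at 0.682 with 1 stimulated array left. After PTX and TRAP, the call was lost without TRAP after PTX replicate 2 (0.741, adjusted p = 0.0619) and kept in the other 25 alternatives. Within the sets, the 4 stimulated arrays were 0.54 to 1.04 above the mean of the basal arrays of their own set on the log2 scale.

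**Figure D1:**
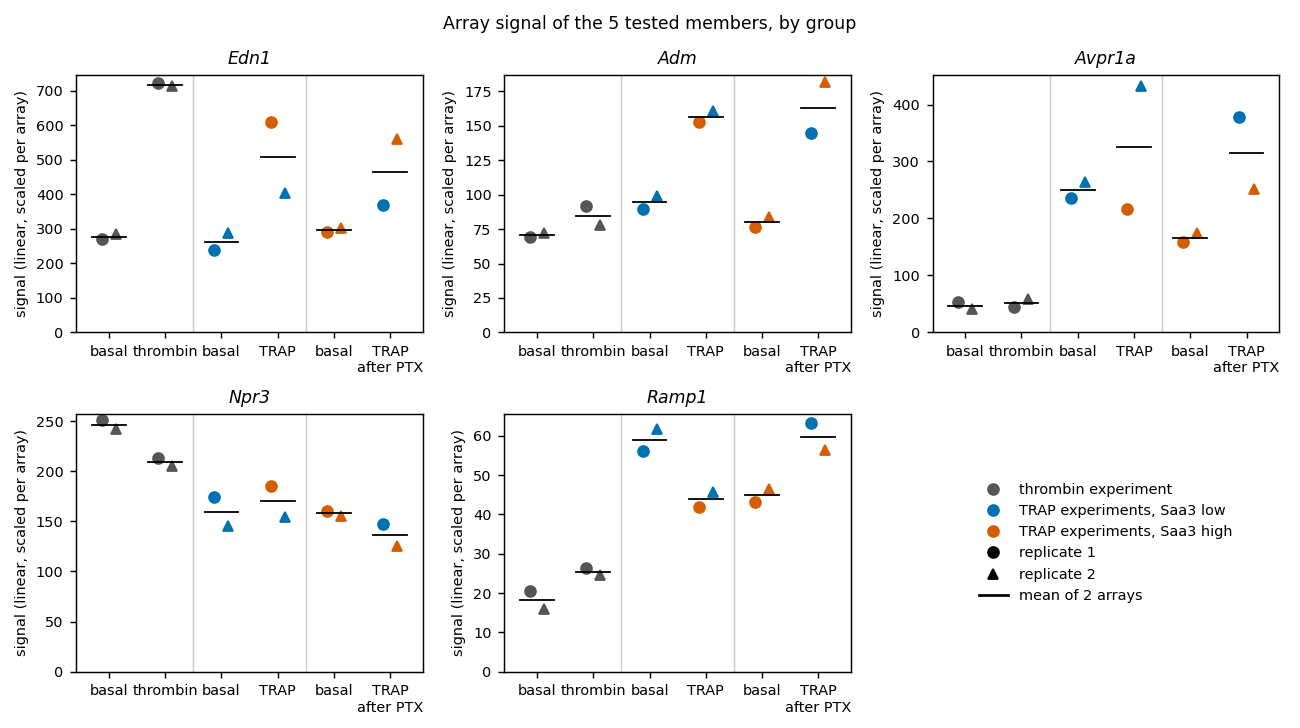
Signal of each tested member on the 12 arrays, on a linear scale that starts at 0. Points are arrays coloured by experiment and Saa3 set, with shapes for replicate numbers, and lines are means of 2 arrays. Edn1 reached 712.3 and 722.2 after thrombin, and Avpr1a was at 40.5 to 58.9 on the 4 arrays of the thrombin experiment.

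The difference between thrombin and TRAP in these responses was tested directly. For Edn1, the thrombin response minus the TRAP response was 0.44 ± 0.27 (SE, log2; 95% interval -0.13 to 1.02; adjusted p = 0.64). For Adm it was -0.43 ± 0.21 (interval -0.89 to 0.03; adjusted p = 0.539). None of the 5 members was called in limma's test of this difference, against 0.532% of all probe sets, and 1 had an unadjusted p under 0.05 (Ramp1, 0.0367). The intervals leave room for a larger rise of Edn1 with thrombin by 1.02, and of Adm with TRAP by 0.89, as well as for no difference. With the array sets as a block, the Edn1 difference was 0.731 (adjusted p = 0.0605).

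The PTX effect is the response to TRAP after PTX minus the response to TRAP. It bears on how much of the peptide's action needs Gi only if the basal arrays had PTX too. Their labels do not say so, and an effect of PTX alone may be part of it. The PTX effect was -0.29 ± 0.27 for Edn1 (95% interval -0.87 to 0.28; adjusted p = 0.851) and 0.25 ± 0.21 for Adm (interval -0.22 to 0.71; adjusted p = 0.845). No member was called in limma's test, against 0.129% of all probe sets, and again 1 had an unadjusted p under 0.05 (Ramp1, 0.0277). The PTX effect on Edn1 changed sign with the treatment of the array sets, to 0.281 with the sets as a block. That on Avpr1a went from 0.55 ± 0.37 (adjusted p = 0.768) to -0.204 with the block.

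**Figure D2:**
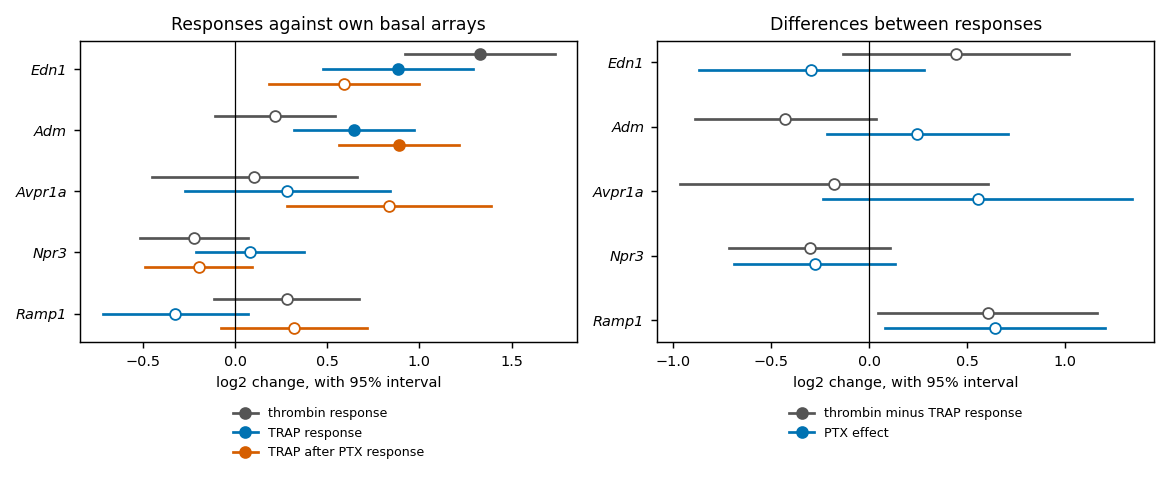
Log2 changes of the tested members with 95% intervals from limma, on the left against the basal arrays of the same experiment and on the right as differences between responses. Filled points passed the test. Edn1 passed after thrombin and TRAP, Adm after TRAP and after TRAP with PTX, and no difference between responses passed.

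Ramp1 encodes a protein that joins Calcrl at the membrane to form the receptor for the vasodilator peptide CGRP. Its signal was 20.5 and 15.9 on the basal arrays and 26.3 and 24.5 after thrombin. It was 56.1 and 61.7 before and 42.0 and 45.6 after TRAP, and 43.1 and 46.5 before and 63.2 and 56.4 after TRAP with PTX. The stimulated arrays were above their basal arrays with thrombin and with TRAP after PTX, and below them with TRAP. The changes of 0.28, -0.32 and 0.32 (SE 0.18 each) did not pass (adjusted p = 0.48, 0.421 and 0.409). Basal Ramp1 was higher in the TRAP experiment by 1.13 ± 0.18 and in the PTX experiment by 0.83 ± 0.18 than in the thrombin experiment (F test adjusted p = 0.000624).

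Avpr1a encodes the vasopressin receptor V1a, which acts through Gq to constrict vessels. In the thrombin experiment its signal was 53.2 and 40.5 before and 44.2 and 58.9 after thrombin. In the TRAP experiment it was 236.0 and 264.1 before and 216.7 and 433.0 after TRAP. In the PTX experiment it was 157.9 and 174.5 before and 378.6 and 251.1 after TRAP. Every array of the thrombin experiment was below every array of the TRAP experiments, and only in the PTX experiment did the stimulated arrays clear their basal arrays.

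Basal Avpr1a was higher in the TRAP experiment than in the thrombin experiment by 2.09 ± 0.26 (SE, log2), and higher in the PTX experiment by 1.54 ± 0.26. In limma's F test among the basal groups the adjusted p was 6.44e-05, and up to 0.00191 over the 22 alternatives run. The changes with stimulation did not pass: 0.10 ± 0.26 with thrombin (adjusted p = 0.888), 0.28 ± 0.26 with TRAP (adjusted p = 0.662) and 0.83 ± 0.26 with TRAP after PTX (adjusted p = 0.11). Avpr1a also split by array set. With TRAP it was 433.0 in the Saa3-low and 216.7 in the Saa3-high set, and with TRAP after PTX 378.6 and 251.1. Each stimulated array lay above both basal arrays of its own set, and 0.35 to 0.76 above their mean on the log2 scale. With the sets as a block, the change was 0.661 with TRAP (adjusted p = 0.0588), 0.457 with TRAP after PTX (adjusted p = 0.232) and 0.41 averaged over the experiments (adjusted p = 0.0096). Without the block the average of 0.41 ± 0.15 had an adjusted p of 0.0920. As the sets were read from these same arrays, the adjusted p-values with the block are no independent support for a change of Avpr1a.

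**Figure D3:**
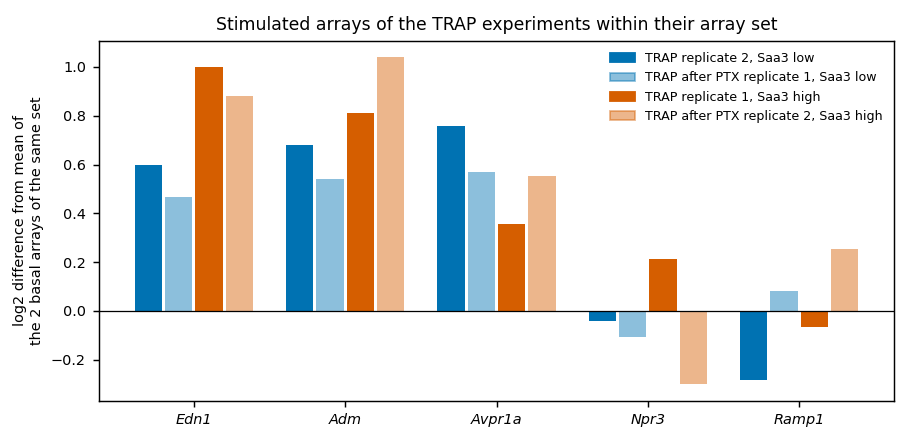
Log2 difference of each stimulated array of the TRAP experiments from the mean of the 2 basal arrays of the same Saa3 set, by member. Bars are single arrays, so there is no error bar. All 4 bars are above 0 for Edn1, Adm and Avpr1a, with Edn1 at 0.47 to 0.60 in the Saa3-low and 0.88 to 0.9994 in the Saa3-high set.

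Npr3 encodes the clearance receptor, which removes natriuretic peptides from the circulation. Its signal was 250.9 and 242.1 on the basal arrays and 212.7 and 205.0 after thrombin, so that the groups did not overlap. With TRAP it was 174.1 and 145.4 before and 185.6 and 154.2 after, and in the PTX experiment 160.4 and 155.5 before and 146.9 and 125.2 after. The changes of -0.22 ± 0.14 (SE, log2) with thrombin, 0.08 ± 0.14 with TRAP and -0.20 ± 0.14 with TRAP after PTX did not pass (adjusted p = 0.431, 0.846 and 0.489). Basal Npr3 was lower in the TRAP and PTX experiments than in the thrombin experiment, by differences of -0.58 ± 0.14 and -0.59 ± 0.14 (F test adjusted p = 0.00369). Against the thrombin experiment, this was the opposite direction to that of Avpr1a. Basal cells of the PTX experiment minus those of the TRAP experiment gave -0.01 ± 0.14 for Npr3 and -0.55 ± 0.26 for Avpr1a.

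Of the 5 tested members, 3 thus differed among the basal groups, Avpr1a, Npr3 and Ramp1, against 42.2% of all probe sets, so that a difference between the cells of these experiments was common on the array. Basal Edn1 and Adm did not pass (adjusted p = 0.742 and 0.174). The summed signal of the 10 smooth muscle markers was 10594 to 14434 on the arrays of the thrombin experiment and 16443 to 20859 on those of the TRAP experiments. Fibroblast markers differed the same way, with sums of 6194 to 6766 against 9377 to 10550. The summed leukocyte markers differed the other way, with 568.2 to 665.1 against 360.8 to 488.8. Only 2 of the 7 on the array, Cd14 and Csf1r, were bright enough to test. Most of the sum was Cd14, at 296.9 to 578.4 over the arrays, so it is no measure of leukocytes. The brightest genes also weigh most in the other sums. These were Acta2 and Tagln (mean signals 7221 and 5561) for smooth muscle, and Mfap5 and Dcn (5431 and 1720) for fibroblasts. Those sums therefore do not show a shift across the whole lists. The proliferation gene Mki67 was at 232.9 to 333.9 in the thrombin experiment. In the TRAP experiments it followed the array sets, at 900.3 to 1095.7 in the Saa3-low and 515.4 to 607.5 in the Saa3-high set. The part of these markers in the basal differences of Avpr1a, Npr3 and Ramp1 was not tested.

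Agtr1a, the angiotensin II receptor gene, and Calcrl, the receptor that adrenomedullin and CGRP share, were dim. Both Agtr1a probe sets stayed between 0.3 and 20.5 on all arrays. Of the Calcrl probe sets, 1369647_at lay between 1.5 and 18.4 and 1369648_at between 2.0 and 33.8. The mean of each was below the filter, which corresponds to a signal of 22.7. Fitted without the filter, none of the 4 probe sets passed in any of the 3 responses, with adjusted p between 0.209 and 0.986. With TRAP the Agtr1a probe sets disagreed in sign, at -0.54 ± 0.27 and 0.29 ± 0.24 (SE, log2). Detection calls were not used here, so these signals do not show whether the transcripts were present.

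**Figure D4:**
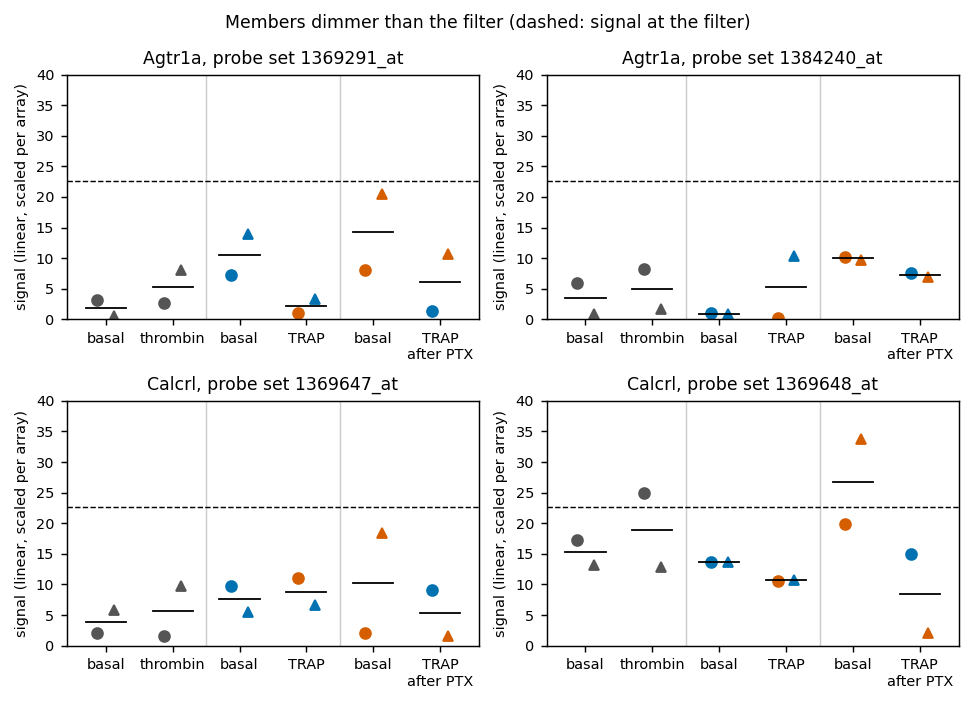
Signal of the 4 member probe sets that were dimmer than the filter, with its signal of 22.7 as a dashed line. Points are arrays, grey for the thrombin experiment, blue and orange for the Saa3-low and Saa3-high arrays of the TRAP experiments, with circles for replicate 1 and triangles for replicate 2. Calcrl 1369648_at reached 33.8 on 1 basal array and 2.0 after TRAP with PTX.

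Across the 5 tested members the median log2 change was 0.22 with thrombin, 0.28 with TRAP and 0.59 with TRAP after PTX. The medians over all tested probe sets were -0.04, -0.04 and -0.04. Stimulated and basal arrays did not overlap for 4, 3 and 5 of the 5 members. With 2 arrays a group this was common: it held for 47.4%, 48.6% and 45.2% of all tested probe sets. Calls were made for 1, 2 and 1 members.

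The patterns most like that of Edn1 over the 12 arrays, out of 9905 other genes, were those of Nfkb2 (Pearson r = 0.934), Junb (0.929) and Mob3a (0.923), in log2 signal. Those most like Adm were Frmd6 (0.944), Tpst2 (0.921) and Lats2 (0.916). The 12 points share experiments and array sets, so these values describe likeness in these arrays alone.

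A wider list of 88 genes covered the enzymes, other peptides, other receptors and the signalling steps of these systems. Of these, 33 genes with 45 probe sets were bright enough to test. In each of the 3 responses 2 of the 45 probe sets rose and none fell, 4.44% against the 4.74%, 3.9% and 2.71% of all probe sets. Both belonged to Rgs2, whose product shuts off Gq and so damps the signal of endothelin, angiotensin and vasopressin receptors.

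Rgs2 probe set 1368144_at was at 317.4 and 298.7 on the basal arrays and 627.2 and 594.8 after thrombin. It was at 334.2 and 359.2 before and 491.4 and 674.9 after TRAP, and at 292.2 and 271.5 before and 593.3 and 422.9 after TRAP with PTX. Every stimulated array was above every basal array. The log2 changes were 0.95 ± 0.16 (SE) with thrombin (adjusted p = 0.0030), 0.71 ± 0.16 with TRAP (adjusted p = 0.022) and 0.80 ± 0.16 with TRAP after PTX (adjusted p = 0.0162). The probe set 1387074_at rose by 0.76, 0.65 and 0.77 (adjusted p = 0.0181, 0.0445 and 0.027). Both probe sets split by array set. With TRAP, 1368144_at was 674.9 in the Saa3-low and 491.4 in the Saa3-high set, and with TRAP after PTX 593.3 and 422.9. For 1387074_at these signals were 1242.3 and 866.5, and 1186.4 and 886.4. The PTX effect, 0.09 ± 0.22 and 0.12 ± 0.24 (SE) in turn, changed sign in 4 and 5 of 25 alternatives. The order of TRAP and TRAP after PTX thus rests on the labels as given. The average over the responses passed in all 24 alternatives for both, while single responses lost their call in 4 to 12 alternatives, except the thrombin response of 1368144_at, which kept it in all 26.

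The enzymes that make or break these peptides did not pass in any response. Ece1, which cuts endothelin-1 from its precursor, changed by 0.25 ± 0.13 (SE, log2) with thrombin (adjusted p = 0.359). Mme, the protease neprilysin, was at 0.03 ± 0.11 (adjusted p = 0.916), and Pam, which amidates adrenomedullin, at 0.03 ± 0.09 in its brighter probe set (adjusted p = 0.906). Ramp2 and Ramp3, which turn Calcrl into adrenomedullin receptors, were at -0.09 ± 0.15 and 0.35 ± 0.19 with TRAP (adjusted p = 0.85 and 0.396). The B-type natriuretic peptide gene Nppb had a log2 change of 1.23 ± 0.59 with TRAP, which did not pass either (adjusted p = 0.321). Ackr3, an atypical receptor that also binds adrenomedullin, was at -0.54 ± 0.18 with thrombin (adjusted p = 0.112). No vasopressin, oxytocin or kinin gene of the list was bright enough to test.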

How the data were processed

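The deposited files hold 1 linear intensity per probe set and array. The authors used GCOS 1.4, per the submitters' processing notes, on 1-colour Affymetrix arrays, per the labels' protocols. The genome build is not given in the sources used here. Each array has a mean of 200 without its lowest and highest 2% of values.

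The scale used here was log2(signal + 16). It makes changes of dim genes look smaller. After removal of 57 control probe sets, 18625 were tested, those whose mean log2 signal exceeded the 40th percentile. A probe set was given a gene where the annotation lists exactly 1 symbol (20826 probe sets). A single model of the 6 groups was fitted (limma 3.58.1, R 4.3.3; functions lmFit and eBayes, the latter with trend; 6 residual and 7.5 prior degrees of freedom), 2-sided, with Benjamini-Hochberg adjustment over all kept probe sets and a threshold of 0.05. With 2 arrays per group, the number of arrays limits the precision.

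The members, the wider list and the motifs were chosen with earlier results of these data known. Every member was named, then the genes of the wider list that were called in a response, and the 3 genes most alike to each called member. List genes given with values that did not pass (Ece1, Mme, Pam, Ramp2, Ramp3, Nppb, Ackr3), and Flt1, were picked after their values were seen. Alternatives were other pseudocounts, filters, scalings, weights, controls and blocks, and each array left out in turn. The 3 fits that use the array sets or crossed replicate numbers were added after seeing the data. Promoter sequences are those of RefSeq on GRCr8, and all 9 members matched.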

Additional observations from a re-analysis of the deposited data

Results flagged for a closer look

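Ramp1 moved in opposite directions on every array between the responses: 0.28 (log2) with thrombin and 0.32 with TRAP after PTX, both with stimulated arrays above their basal arrays, against -0.32 with TRAP, with both arrays below. The difference was tested: thrombin minus TRAP was 0.60 ± 0.26 (SE; 95% interval 0.04 to 1.16) and TRAP after PTX minus TRAP 0.64 ± 0.26 (interval 0.08 to 1.20). Neither passed limma's test over all probe sets (adjusted p = 0.446 and 0.516). Stimulated and basal arrays did not overlap for 47.4%, 48.6% and 45.2% of all tested probe sets with thrombin, TRAP and TRAP after PTX. How many of them moved in opposite directions was not counted. Ramp1 was picked because its directions differed on these arrays, so intervals that leave out 0 are no independent support. Ramp1 was dim, with signals of 15.9 to 63.2. The basal arrays of the PTX experiment (43.1 and 46.5) were as low as the TRAP arrays (42.0 and 45.6). Against the mean of the basal arrays of their own Saa3 set, TRAP replicates 2 and 1 were at -0.28 and -0.07, and TRAP after PTX replicates 1 and 2 at 0.08 and 0.25.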

How the results depend on the processing

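Over the members and Rgs2, 1086 of 1167 recomputed values kept their side of the threshold and, where they have one, their direction. The basal F tests have no direction. Of the rest, 44 lost a call, 8 gained one and 29 that were never called changed sign. Leaving out an array outside a comparison cannot move its change, only the SE and adjusted p, so these counts overstate stability. No called value was reversed. The thrombin response of Edn1 was called in all 26 alternatives (1.20 to 1.37). After TRAP, 2 members were called, but 1 with no filter, with no intensity trend, with all 6 basal arrays as control, with the array sets as a block or without the stimulated arrays outside their basal set. Leaving out 1 array gave 0 to 2. After PTX and TRAP, 1 was called, but 2 with the sets as a block or without those arrays, and 0 to 2 with 1 array left out.

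Counts over all probe sets moved more. Thrombin's 882 became 542 with all basal arrays as control, 576 with only the arrays compared, and 342 to 918 with 1 array left out. TRAP's 727 became 1111 with array weights, 73 with all basal arrays, and 208 to 759 with 1 array left out. The 505 of TRAP after PTX became 334 with no trend, 305 with weights, 62 with all basal arrays, 166 without the stimulated arrays outside their basal set, 260 with only the arrays compared, and 149 to 539 with 1 array left out. The 2453 of the average became 1628 to 2354 with 1 array left out. The 99 of thrombin minus TRAP became 23 with no trend and 33 to 140 with 1 array left out. The 24 of the PTX effect became 13 with no filter, 0 with no trend, 9 without the arrays outside their set, 1 with only the arrays compared, and 0 to 47 with 1 array left out. The cause was not tested.

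Same-numbered basal and stimulated arrays deviated together with r = 0.134, 0.104 and 0.022, so the numbers were not taken as pairs. With the replicate block, 859, 747 and 469 probe sets were called in the 3 responses, and no member changed its call. With replicate numbers crossed between the TRAP experiments, 1117, 902 and 683 were called.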
